A study of Mus musculus with 12 samples.

Results

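Amino acid catabolism and the urea cycle were followed in the liver through 55 genes that encode their enzymes and transporters, out of 31114 genes in the RNA-seq data. The genes were taken by name from a list of symbols, with no threshold on a measured value, and each symbol was found through its Ensembl transcripts. The list was chosen with earlier results of these data known, so the shares of members called below are not independent of that choice. The livers came from 12 hFIX-R29X mice. These animals have no F9 gene of their own, and a human FIX minigene bearing the R29X nonsense mutation is driven in them by the human transthyretin promoter, which is active in hepatocytes. The 3 groups of 4 livers, each of 2 females (replicates 1 and 2) and 2 males (replicates 3 and 4), had received the vehicle DPBS, Control-GalNAc-ASO at 15 mg/kg or Upf3b-GalNAc-ASO at 10 mg/kg. All mice were 8 to 14 weeks old, were dosed 6 times at intervals of 5 days and were examined 48 h after the last dose. An antisense oligonucleotide (ASO) pairs with its target RNA and directs RNase H to it, and GalNAc is a sugar ligand taken up by the asialoglycoprotein receptor of hepatocytes. Below, the groups are called DPBS, control ASO and Upf3b-ASO. The doses of the 2 ASOs differed, so that the sequence and the dose cannot be told apart in that comparison.

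Hepatocytes are the main site at which the body breaks down amino acids. Aminotransferases, dehydratases and oxidases strip the nitrogen, the carbon skeletons enter gluconeogenesis or the citric acid cycle, and the urea cycle turns the ammonia into urea. The work is divided along the liver lobule. Periportal hepatocytes carry urea synthesis and most amino acid breakdown, and a thin pericentral layer takes up the ammonia that remains and fixes it as glutamine. Several of these genes, such as Tat and Sds, are known to be raised by glucocorticoids and glucagon. Upf3b is a factor of nonsense-mediated mRNA decay (NMD), which removes transcripts with a premature stop codon.

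The 2 oligonucleotides are shown because they define the groups, and because a member with a long stretch of pairing to either would be a possible target. The sequences are those of the unconjugated parents, 5′ to 3′, with no capitals.
Upf3b-ASO: ggatatagatgtaacg
control ASO: ggccaatacgccgtca
The site of the Upf3b-ASO, CGTTACATCTATATCC, lies in the 3′ UTR of Upf3b, in exon 10 of the 10 exons of Upf3b-201 (GRCm38, chrX:37091973-37091988, minus strand). In the spliced transcripts of 54 members, the longest run that pairs with the 16 bases of the Upf3b-ASO had a median of 7 bases and a maximum of 9, found in Bhmt and Otc. Over 8840 genes the median was 7 bases, and 6.82% of the genes had a run of at least 9. For the control ASO the median of the members was 6 bases and the maximum 9, in Asl and Gldc. Over the same 8840 genes the median was 6 bases, and 1.81% had a run of at least 9. No member held 11 or more paired bases to either ASO, beside 0.407% of all genes for the Upf3b-ASO and 0.0339% for the control ASO. At shares this low, none among 54 says little about the members. Introns were not searched.

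Total depth was 13277892 to 20387682 estimated counts per liver, and the 55 members together took 3.09% ± 0.268 of the counts with DPBS, 3.52% ± 0.374 with control ASO and 3.22% ± 0.391 with Upf3b-ASO (SD, n = 4). The target gene Upf3b was reduced by 89.9% in Upf3b-ASO livers against control ASO livers (log2 fold change -3.3 ± 0.27 SE, edgeR adjusted p = 7.4e-05; exact permutation test, two-sided, p = 0.029, the smallest that 4 against 4 allows). The 7 matched of 8 hepatocyte markers summed to between 53089.5 and 105545 CPM in each liver. Control ASO replicate 3, a male, stood apart from the other livers. It was the highest of 12 livers for 15 members (27.8%, against 31.1% of all tested genes) and the lowest for 20 (37.0%, against 32.0%), and the sum of its acute-phase genes reached 48384 CPM, where no other liver exceeded 11715 CPM. Control ASO replicate 2, a female, was likewise the highest of 12 for 15 members (27.8%), against 5.65% of all tested genes. CPM is a gene's count relative to the depth of its liver after TMM scaling. Results are given with control ASO replicate 3 unless stated, and those that rest on it are given without it as well. The RNA came from whole liver, in which fewer cells of a type and less RNA per cell cannot be told apart.

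To determine how far the Upf3b-ASO moved amino acid catabolism, treated livers were first set against the control ASO group. Of 55 members, 54 passed the expression filter and 11 (20.4%) were called changed, meaning an edgeR adjusted p under 0.05 over all genes tested. The share over all 8846 genes was 10.3%. Otc, Ftcd, Prodh2 and Gldc rose, and Asl, Prodh, Oat, Glul, Mat1a, Gnmt and Ahcy fell. The share that rose was 7.41% of the members against 4.34% of all genes, and the share that fell was 13.0% against 5.95%. The median log2 fold change of the 54 members was -0.03, beside -0.02 over all genes, and 26 of 54 had a positive value. In 12 of 54 members the values of the 2 groups did not overlap, beside 15.4% of all genes. Mat1a was called although its groups overlapped, and Tat and Amt did not overlap but were not called. Bcat2, the branched-chain aminotransferase of extrahepatic tissues, was under the filter, at 0.645 to 1.8 CPM.

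**Figure D1:**
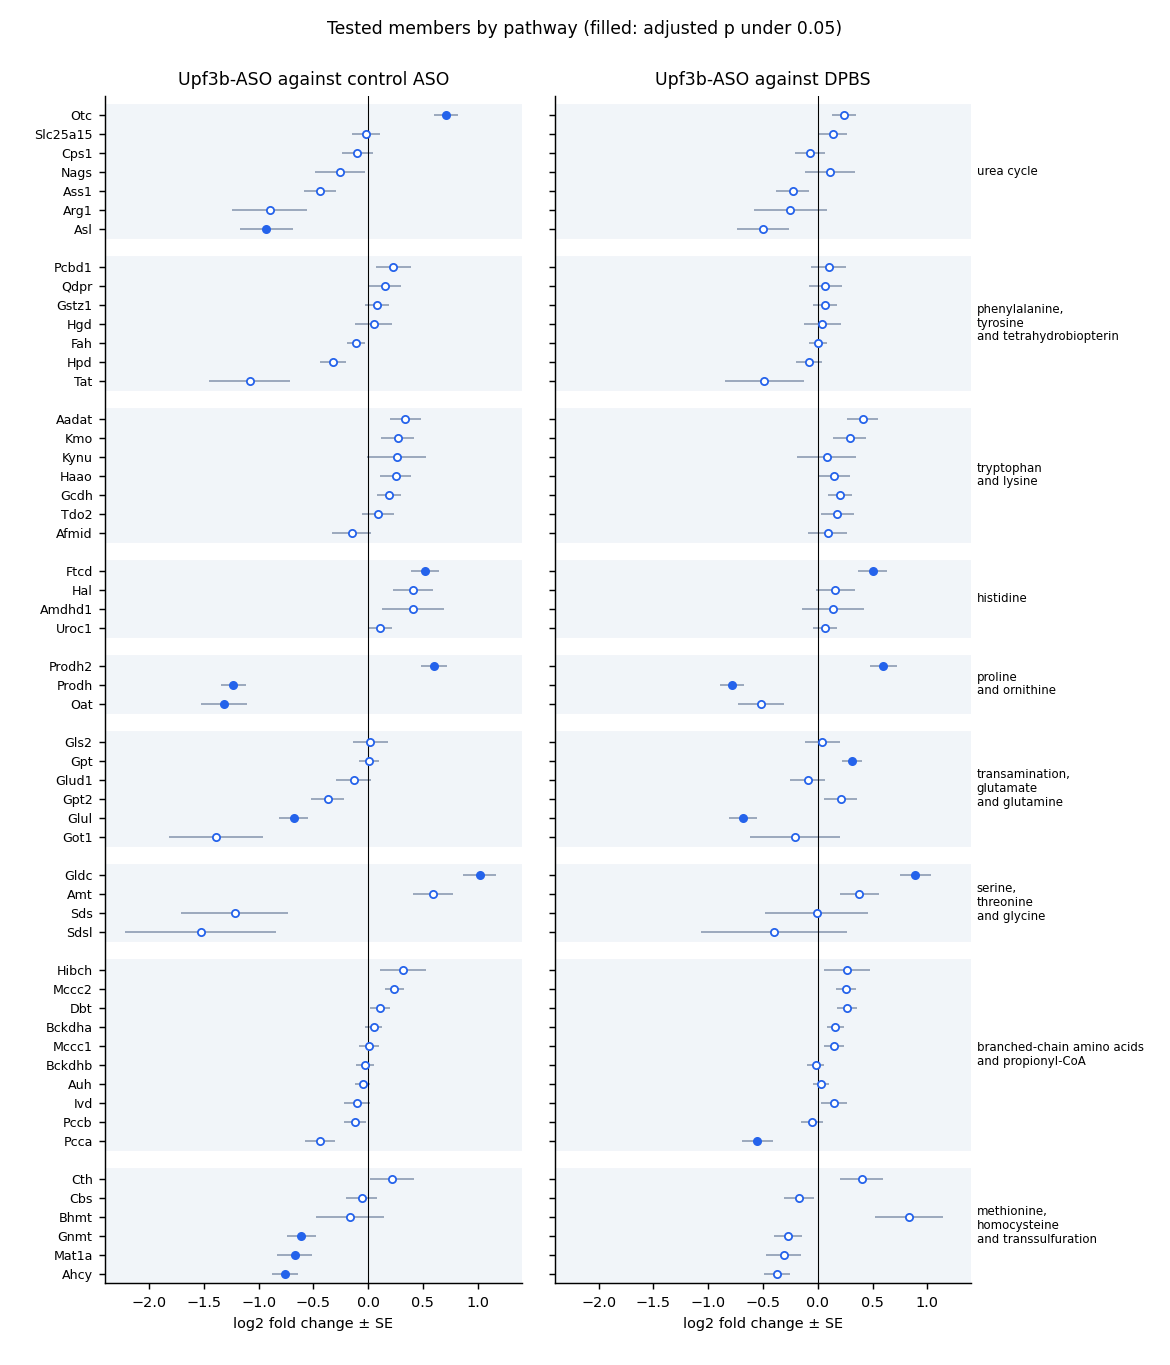
Log2 fold change ± SE (x axis) of the 54 tested members, grouped by pathway (y axis), in Upf3b-ASO against control ASO livers on the left and against DPBS livers on the right; filled points have an edgeR adjusted p under 0.05. On the left 4 members are filled above 0 and 7 below it, and on the right 4 and 3.

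A call in the same direction against DPBS and against control ASO was found for 5 members (9.26%, beside 6.1% of all genes). These were Ftcd, Prodh2 and Gldc, which were higher in Upf3b-ASO livers, and Prodh and Glul, which were lower. These 2 comparisons share the Upf3b-ASO livers and are therefore not independent of each other.

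The promoters of the 5 members called against both reference groups are shown, as they are the sequences nearest to a shared change. They are taken from RefSeq (GRCm38.p6), run 5′ to 3′ on the strand of the gene from 250 bases before to 50 after its start, and capitals mark matches to any of 6 motifs searched on both strands.
Gldc, chr19:30175392-30175691, minus strand: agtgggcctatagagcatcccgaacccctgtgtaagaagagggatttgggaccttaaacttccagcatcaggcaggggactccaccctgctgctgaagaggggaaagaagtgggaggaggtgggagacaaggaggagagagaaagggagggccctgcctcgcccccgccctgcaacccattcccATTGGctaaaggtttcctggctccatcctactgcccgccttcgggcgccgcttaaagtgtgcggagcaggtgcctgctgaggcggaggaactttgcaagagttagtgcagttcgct
Prodh2, chr7:30493408-30493707, plus strand: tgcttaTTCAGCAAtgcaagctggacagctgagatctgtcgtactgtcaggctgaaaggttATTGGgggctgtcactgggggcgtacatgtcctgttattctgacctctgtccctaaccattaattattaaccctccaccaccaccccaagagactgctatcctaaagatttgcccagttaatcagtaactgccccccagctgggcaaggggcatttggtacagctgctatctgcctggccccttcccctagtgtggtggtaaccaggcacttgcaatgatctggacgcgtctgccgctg
Ftcd, chr10:76575398-76575697, plus strand: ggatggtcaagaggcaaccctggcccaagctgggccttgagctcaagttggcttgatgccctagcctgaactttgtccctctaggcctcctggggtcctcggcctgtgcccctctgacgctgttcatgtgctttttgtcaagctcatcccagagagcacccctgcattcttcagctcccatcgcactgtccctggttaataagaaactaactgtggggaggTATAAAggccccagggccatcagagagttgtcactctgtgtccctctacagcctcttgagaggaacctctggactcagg
Prodh, chr16:18089141-18089440, minus strand: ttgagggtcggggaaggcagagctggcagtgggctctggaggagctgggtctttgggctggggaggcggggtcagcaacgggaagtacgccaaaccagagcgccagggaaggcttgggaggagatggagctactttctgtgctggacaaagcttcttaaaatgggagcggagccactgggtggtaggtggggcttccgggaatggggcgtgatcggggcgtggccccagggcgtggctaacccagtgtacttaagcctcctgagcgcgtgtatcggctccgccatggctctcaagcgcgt
Glul, chr1:153899679-153899978, plus strand: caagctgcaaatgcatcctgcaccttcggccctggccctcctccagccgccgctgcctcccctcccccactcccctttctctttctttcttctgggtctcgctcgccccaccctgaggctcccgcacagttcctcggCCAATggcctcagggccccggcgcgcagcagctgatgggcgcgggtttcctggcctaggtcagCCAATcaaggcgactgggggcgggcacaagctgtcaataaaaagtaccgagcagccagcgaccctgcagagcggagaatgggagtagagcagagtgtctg
The motifs were the TATA box (TATAAA), the CCAAT box (CCAAT), the cAMP response element (TGACGTCA), a C/EBP core (TTGCNNAA), an HNF4 site (CAAAGTCCA) and the E-box (CACGTG). Ftcd holds a TATA box, Gldc a CCAAT box, Glul 2 CCAAT boxes and Prodh2 a CCAAT box and the C/EBP core, and Prodh holds none of the 6. Over the 44 of 55 member genes matched in the table, a CCAAT box occurred in 54.5%, against 37.4% of 32851 promoters. A TATA box occurred in 11.4% against 13.6%. The first share counts genes with the motif in any of their promoters and the second counts single promoters, so the 2 are unlike measures. The E-box was found in 9.09% against 7.15% and the C/EBP core in 11.4% against 10.8%. The HNF4 site was found in 2.27% (1 gene) against 0.475% and the cAMP response element in none against 1.79%. No motif was shared by all promoters of the members that rose or of those that fell.

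The genes of the proline and the hydroxyproline dehydrogenase both changed, in opposite directions. Prodh (ENSMUSG00000003526, GRCm38 chr16:18060357-18090203, minus strand), the mitochondrial proline dehydrogenase, stood at 164, 153, 177 and 180.1 CPM in the DPBS livers, at 242, 275, 199 and 216 CPM in the control ASO livers and at 98.2, 114, 96.4 and 86.7 CPM after Upf3b-ASO. All Upf3b-ASO livers lay under every DPBS liver, and all DPBS livers lay under every control ASO liver. Prodh fell by 57.5% against control ASO (log2 fold change -1.23 ± 0.11 SE, edgeR adjusted p = 0.00015) and by 41.7% against DPBS (-0.78 ± 0.11, adjusted p = 0.002). The control ASO level lay above that of DPBS by 0.46 ± 0.11 on the log2 scale, which was not called (edgeR adjusted p = 0.57). Prodh2 (ENSMUSG00000036892, chr7:30493622-30513402, plus strand), which encodes the liver and kidney hydroxyproline dehydrogenase, stood at 174, 159, 130.5 and 143 CPM in DPBS livers, at 158, 184, 107 and 158 CPM in control ASO livers and at 249, 242, 219 and 206 CPM in Upf3b-ASO livers. The Upf3b-ASO livers were all above the other 8, with the highest of those at 184 CPM. Prodh2 rose by 51.8% against control ASO (0.60 ± 0.12, edgeR adjusted p = 0.0097) and by 51.9% against DPBS (0.60 ± 0.12, adjusted p = 0.0099), and only a fit restricted to the Upf3b-ASO and control ASO groups lost the first call, at an adjusted p = 0.059. The call against DPBS held in 8 of 11 alternative fits and was lost in the 3 limma fits on TPM, at an adjusted p of up to 0.1.

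The third gene of this group, Oat, is the ornithine aminotransferase that links ornithine with glutamate and proline and is most abundant in pericentral hepatocytes. It stood at 488, 794, 522 and 747 CPM in DPBS livers, at 1034, 1446, 842 and 1139 CPM in control ASO livers and at 388, 507, 519 and 363 CPM in Upf3b-ASO livers. The Upf3b-ASO group was entirely lower than the control ASO group but overlapped DPBS livers, and control ASO livers were all above DPBS livers. Oat fell by 60.0% against control ASO (log2 fold change -1.32 ± 0.21 SE, edgeR adjusted p = 0.0039), and the difference against DPBS was -0.52 ± 0.21 (adjusted p = 0.16). Control ASO against DPBS gave 0.80 ± 0.21 (adjusted p = 0.58).

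Gldc (ENSMUSG00000024827, chr19:30098447-30175429, minus strand) encodes the glycine decarboxylase of the mitochondrial glycine cleavage system. It stood at 124, 124, 81.9 and 109 CPM in DPBS livers, at 114, 125, 90.2 and 74.1 CPM in control ASO livers and at 203, 192, 227 and 181 CPM in Upf3b-ASO livers. DPBS and control ASO livers overlapped, and every Upf3b-ASO liver lay above both groups. Gldc was 2.03-fold higher than in control ASO livers (log2 fold change 1.02 ± 0.15 SE, edgeR adjusted p = 0.0018) and 1.86-fold higher than in DPBS livers (0.89 ± 0.14, adjusted p = 0.0037). Amt, the aminomethyltransferase of the same complex, stood at 70.3, 66.4, 65.7 and 60.9 CPM in Upf3b-ASO livers and at 54.9, 59.6, 24.1 and 42.7 CPM in control ASO livers, without overlap. Its difference of 0.59 ± 0.18 had an adjusted p = 0.061 with all livers, and without control ASO replicate 3, the liver at 24.1 CPM, Amt had a log2 value of 0.41 and was called higher (edgeR adjusted p = 0.014). Sds and Sdsl, which encode the serine and threonine dehydratase and its homologue, were carried by 1 liver. Sds stood at 993 CPM in control ASO replicate 3, while the 11 remaining livers held 138 to 296 CPM, and Sdsl at 73.8 against 5.1 to 10.7 CPM. The log2 differences of Sds and Sdsl against control ASO were -1.22 and -1.53 with that liver and -0.31 and -0.16 without it, with no call in either fit.

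Ftcd (ENSMUSG00000001155, chr10:76575648-76590338, plus strand) encodes the bifunctional enzyme that ends histidine breakdown by moving a formimino group to folate. It stood at 309, 344, 345 and 356 CPM in DPBS livers, at 287, 376, 272 and 398 CPM in control ASO livers and at 493, 435, 475 and 512 CPM in Upf3b-ASO livers, which were all above the other 8. Ftcd rose by 43.5% against control ASO (log2 fold change 0.52 ± 0.13 SE, edgeR adjusted p = 0.029) and by 41.5% against DPBS (0.50 ± 0.13, adjusted p = 0.036). This call was not held by 3 of 11 alternative fits against control ASO and by 6 of 11 against DPBS. With 1 liver left out it held in 7 of 12 fits against control ASO, being lost without control ASO replicate 1 or any Upf3b-ASO liver, and in 4 of 12 against DPBS, being lost without any liver of either group (adjusted p up to 0.11 and 0.18). The 3 enzymes before it in the pathway were not called: Hal, histidine ammonia-lyase, had a log2 difference of 0.41 ± 0.18 (adjusted p = 0.17), Amdhd1, imidazolonepropionase, 0.41 ± 0.28 (0.36) and Uroc1, urocanase, 0.11 ± 0.11 (0.54). Without control ASO replicate 3, where Hal was at 122 CPM and Amdhd1 at 57.7 CPM, the values of Hal and Amdhd1 were 0.23 and 0.12.

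Glul (ENSMUSG00000026473, chr1:153899944-153909723, plus strand) encodes glutamine synthetase, the defining enzyme of the pericentral layer. It stood at 1412, 1298, 991 and 1182 CPM in DPBS livers, at 1252, 1049.7, 1328 and 1278 CPM in control ASO livers and at 686, 809, 826 and 734 CPM in Upf3b-ASO livers. The Upf3b-ASO livers were all under the lowest of the other 8 livers, 991 CPM, and the DPBS and control ASO livers overlapped. Glul fell by 37.8% against control ASO (log2 fold change -0.68 ± 0.13 SE, edgeR adjusted p = 0.0078) and by 37.4% against DPBS (-0.68 ± 0.13, adjusted p = 0.0088). The call against control ASO held in 9 of 11 alternative fits. It was lost with limma on TPM with either pseudocount, at a limma adjusted p of up to 0.051. Of the 31-base words of the Glul transcripts 20.4% also occur in other genes, chiefly the pseudogene Glns-ps1, which was listed at 38.2 to 77.3 CPM and fell by 0.71 likewise on the log2 scale against control ASO, with an edgeR adjusted p = 0.0074. Reads of Glul and its copy cannot be fully told apart. Among the pericentral markers, which leave out the members Glul and Oat, 2 of 7 tested fell and none rose, namely the glutamate transporter Slc1a2 (-1.31 ± 0.16, edgeR adjusted p = 0.00091) and Lhpp (-1.05 ± 0.19, adjusted p = 0.0062). The summed level of the pericentral list, whose 10 markers were all detected in some liver, was 3986 to 5245 CPM in Upf3b-ASO, 4664 to 8168 CPM in control ASO and 5198 to 6001 CPM in DPBS livers. The part of cell composition in the level of Glul was not tested.

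The remaining transamination and glutamate genes were not called against control ASO. Got1, the cytosolic aspartate aminotransferase, stood at 824 CPM in control ASO replicate 3, while the rest lay between 96.5 and 331 CPM. Its log2 difference was -1.39 ± 0.43 (edgeR adjusted p = 0.064) with that liver and it fell by 0.72 without it (adjusted p = 0.019). Gpt2, the mitochondrial alanine aminotransferase, had a difference of -0.37 ± 0.15 (adjusted p = 0.14), Glud1, glutamate dehydrogenase, -0.13 ± 0.16 and Gls2, the liver glutaminase, 0.02 ± 0.16. Gpt, the cytosolic alanine aminotransferase, lay at 0.01 ± 0.09 against control ASO, while against DPBS it rose (log2 fold change 0.31 ± 0.09 SE, edgeR adjusted p = 0.048). Gpt stood at 384, 373, 308 and 300.2 CPM in Upf3b-ASO livers, 343, 399, 287 and 326 CPM in control ASO livers and 280.4, 288, 262 and 265 CPM in DPBS livers. All Upf3b-ASO livers were above all DPBS livers, and control ASO replicate 3, at 287 CPM, overlapped the DPBS group. Blocking on the replicate number gave Gpt an adjusted p = 0.086 against DPBS. The call held in 4 of 11 alternative fits and in 2 of 12 fits without 1 liver, those without control ASO replicate 2 or 3, with adjusted p up to 0.31 in the rest.

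Within the urea cycle 1 gene rose, 1 fell and 5 were not called against control ASO, and none of the 7 was called against DPBS. Otc, the ornithine transcarbamylase of the mitochondrial matrix that makes citrulline, stood at 468, 488, 494 and 458 CPM in DPBS livers, at 332, 403, 294 and 352 CPM in control ASO livers and at 504, 548, 639 and 569 CPM in Upf3b-ASO livers. The 3 groups did not overlap, with control ASO lowest and Upf3b-ASO highest. Otc rose by 63.6% against control ASO (log2 fold change 0.71 ± 0.11 SE, edgeR adjusted p = 0.0034), and the other 2 differences, 0.24 ± 0.11 against DPBS (adjusted p = 0.22) and -0.47 ± 0.11 for control ASO against DPBS (0.57), were not called. Asl, argininosuccinate lyase, which splits off fumarate to give arginine, was at 327 ± 60.4 CPM in Upf3b-ASO, 629 ± 235 CPM in control ASO and 466 ± 75.1 CPM in DPBS livers (SD, n = 4). Asl fell by 47.5% against control ASO (-0.93 ± 0.24, edgeR adjusted p = 0.034). Control ASO replicate 3 held 974 CPM of Asl, and without it the value was -0.64 (adjusted p = 0.016). The call of Asl was also lost in 4 of 11 alternative fits and in 7 of 12 fits without 1 liver. Cps1, the carbamoyl phosphate synthetase of the first step and the member with the most counts, lay at 4031 to 7826 CPM in the 12 livers with a difference of -0.10 ± 0.14. Ass1, argininosuccinate synthase, had -0.44 ± 0.15 (adjusted p = 0.083), and the ornithine carrier Slc25a15 -0.02 ± 0.13. Arg1, the arginase that releases urea, was at 3184 CPM in control ASO replicate 3 and at 696 to 1266 CPM elsewhere. Its difference of -0.90 ± 0.34 (adjusted p = 0.11) became a fall of 0.32 on the log2 scale without that liver (edgeR adjusted p = 0.049). Nags, which makes the activator of Cps1, was at 115 CPM in the same liver and at 44.2 to 61.7 CPM in the others.

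A run of 3 consecutive steps of the methionine cycle were lower in Upf3b-ASO than in control ASO livers. Mat1a makes S-adenosylmethionine, Gnmt spends it on glycine, and Ahcy cleaves the S-adenosylhomocysteine that results. Ahcy stood at 1178, 1106, 1457 and 1325 CPM in DPBS livers, at 1336, 1701, 2010.2 and 1612 CPM in control ASO livers and at 863, 933, 1207 and 915 CPM in Upf3b-ASO livers, which were all under the control ASO livers and overlapped the DPBS livers. Ahcy fell by 41.1% against control ASO (log2 fold change -0.76 ± 0.12 SE, edgeR adjusted p = 0.0034). The count of Ahcy is uncertain, since 71.4% of its 31-base words also occur in other genes, mainly Gm4737, which was listed at 349 to 796 CPM and fell by 0.73 ± 0.11 against control ASO (adjusted p = 0.0027). Together the 2 genes held 1361 ± 192 CPM in Upf3b-ASO, 2299 ± 394 CPM in control ASO and 1719 ± 221 CPM in DPBS livers (SD, n = 4). Gnmt, at 896 ± 125 CPM in Upf3b-ASO, 1372 ± 213 CPM in control ASO and 1078 ± 65.8 CPM in DPBS livers, fell by 34.5% against control ASO without overlap (-0.61 ± 0.13, edgeR adjusted p = 0.017). Mat1a fell by 37.0% (-0.67 ± 0.16, adjusted p = 0.027), from 3360.3 ± 573 CPM in control ASO to 2180.3 ± 636 CPM in Upf3b-ASO livers. Against DPBS, where Mat1a stood at 2663 ± 392 CPM, the 3 differences were -0.37 for Ahcy, -0.27 for Gnmt and -0.31 for Mat1a (adjusted p = 0.088, 0.26 and 0.28). The calls of Gnmt and Mat1a against control ASO were each lost in 4 of 11 alternative fits. Both were also lost without control ASO replicate 2 or Upf3b-ASO replicate 4, and that of Mat1a without Upf3b-ASO replicate 2 or 3.

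The other genes of homocysteine metabolism were not called. Bhmt, which returns homocysteine to methionine with betaine, stood at 4862 CPM in control ASO replicate 3, at 1777 to 2228 CPM in the rest of that group, at 1829 to 2929 CPM in Upf3b-ASO livers and at 954 to 1501 CPM in DPBS livers. All livers of both ASO groups were above all DPBS livers, and the log2 difference from DPBS was 0.83 ± 0.31 for Upf3b-ASO (edgeR adjusted p = 0.14) and 1.0 ± 0.32 for control ASO (0.64). Without control ASO replicate 3 Bhmt rose by 0.87 in Upf3b-ASO against DPBS (adjusted p = 0.0034). Cbs and Cth, the pair of the transsulfuration route from homocysteine to cysteine, had differences of -0.06 ± 0.14 and 0.22 ± 0.20 against control ASO. Cbs moved to 0.15 on the rescaled TPM scale, on which the median of all genes was also 0.15.

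**Figure D2:**
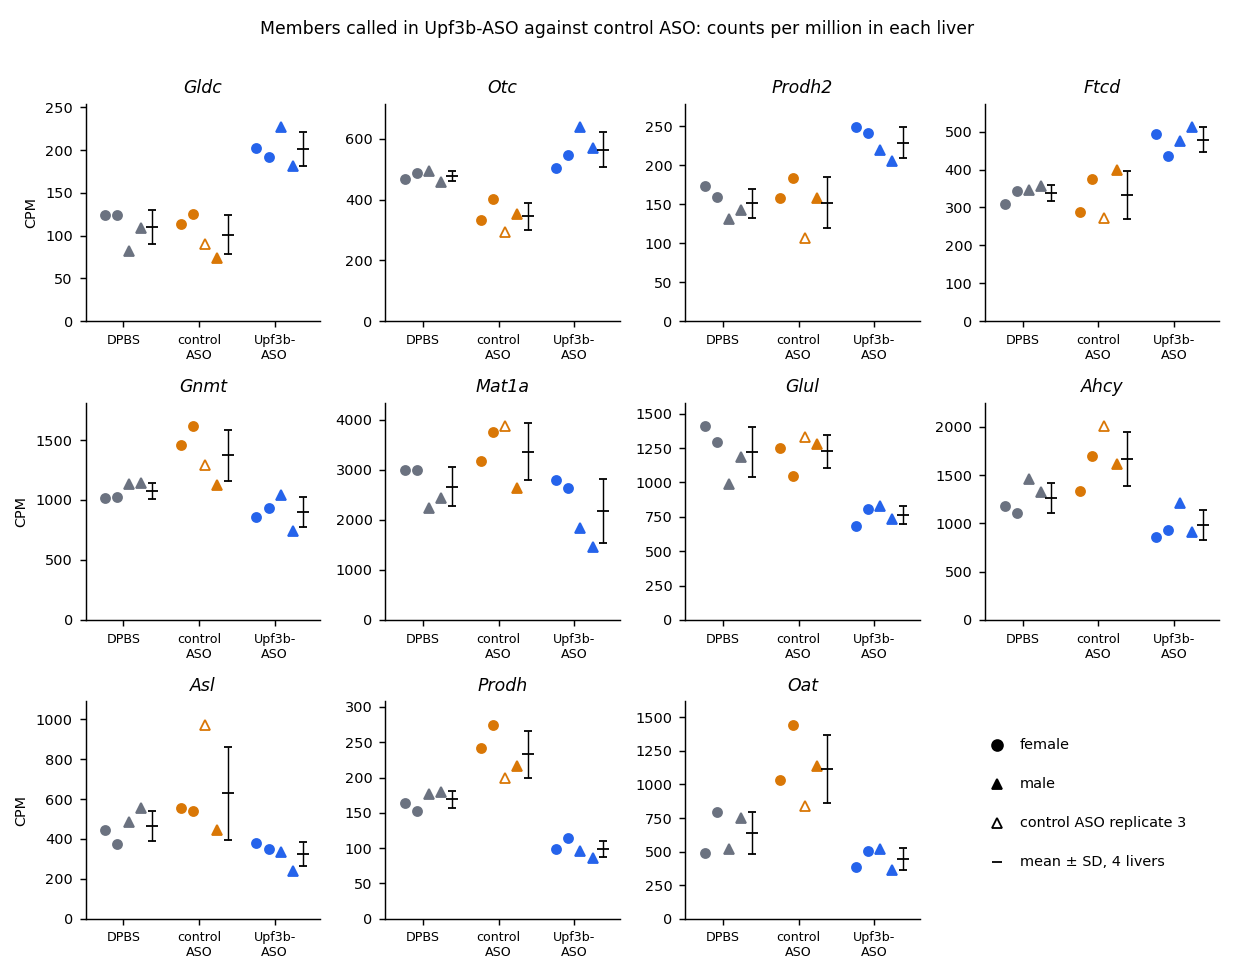
CPM (y axis, from 0) in each liver for the 11 members called in Upf3b-ASO against control ASO; circles are females, triangles males, the open triangle is control ASO replicate 3, and bars give the mean ± SD of 4 livers. Gldc, Prodh2 and Ftcd of all Upf3b-ASO livers lie above the other 8 livers, and Prodh and Glul below them, while for Otc, Oat, Ahcy, Gnmt, Mat1a and Asl the DPBS livers lie between the ASO groups or overlap at least 1 of them.

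Phenylalanine and tyrosine breakdown showed no call. Tat, tyrosine aminotransferase, stood at 856 to 1423 CPM in Upf3b-ASO livers and at 1449 to 4841 CPM in control ASO livers, without overlap, and its difference was -1.08 ± 0.37 (edgeR adjusted p = 0.087) with control ASO replicate 3, the liver at 4841 CPM, and -0.57 (0.11) without it. Hpd, the 4-hydroxyphenylpyruvate dioxygenase of the next step, had -0.32 ± 0.12 (adjusted p = 0.11) and fell by 0.40 without that liver (adjusted p = 0.015). The steps after it, Hgd, Gstz1 and Fah, lay between -0.11 and 0.08, and Qdpr and Pcbd1, which recycle the tetrahydrobiopterin cofactor, at 0.15 ± 0.15 and 0.23 ± 0.16.

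Tryptophan and lysine breakdown showed no call either. Tdo2, the tryptophan dioxygenase that opens the pathway, had a log2 difference of 0.09 ± 0.15, and Afmid, which makes kynurenine, -0.15. Kmo, Kynu and Haao, which act in the steps from kynurenine onward, had 0.27, 0.26 and 0.25. Aadat, an aminotransferase of aminoadipate and kynurenine, had 0.34 ± 0.14 (edgeR adjusted p = 0.14) and Gcdh, glutaryl-CoA dehydrogenase, 0.19 ± 0.11.

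In branched-chain amino acid breakdown none of 10 tested genes was called against control ASO, with values between -0.44 and 0.32. The subunits Bckdha, Bckdhb and Dbt of the branched-chain ketoacid dehydrogenase were at 0.05, -0.03 and 0.11, each with an SE of 0.08 or 0.09. Ivd, Mccc1, Mccc2 and Auh of the leucine route lay between -0.10 and 0.24, and Hibch of the valine route at 0.32 ± 0.21. Of the subunits of propionyl-CoA carboxylase, Pccb had -0.12 ± 0.10, while Pcca stood at 15.4, 18.8, 27.2 and 18.4 CPM in Upf3b-ASO livers, 27.1, 24, 26.1 and 30.3 CPM in control ASO livers and 27.3, 30.7, 31.4 and 26.6 CPM in DPBS livers. Upf3b-ASO replicate 3, at 27.2 CPM, overlapped both other groups. Pcca fell by 0.55 ± 0.14 on the log2 scale against DPBS (edgeR adjusted p = 0.038, and 0.058 with the replicate number as a block), and its difference from control ASO was -0.44 ± 0.14 (adjusted p = 0.08). The call against DPBS held in 4 of 11 alternative fits and in 5 of 12 without 1 liver (adjusted p up to 0.2), and was lost without DPBS replicates 1, 2 or 3, control ASO replicate 2 or Upf3b-ASO replicates 1, 2 or 4.

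Against DPBS, 7 of 54 members were called in Upf3b-ASO livers (13.0%, beside 8.93% of all genes). The 4 that rose, Ftcd, Prodh2, Gldc and Gpt, made 7.41% against 3.57% of all genes, and the 3 that fell, Prodh, Glul and Pcca, 5.56% against 5.36%. The median log2 fold change of the members was 0.08. Control ASO replicate 3 is in neither group, but is part of the joint fit, and without it 17 members were called (31.5%, beside 28.7% of all genes), 11 higher and 6 lower.

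Control ASO livers were compared with DPBS livers to see how far treatment with an ASO alone moved the members. No member was called by edgeR (0.0113% of all genes), and 10 of 54 had an unadjusted p under 0.05, beside 6.97% of all genes. The DESeq2 Wald test called 4 members, beside 0.486% of all genes: Prodh (0.46), Gpt (0.31) and Oat (0.81) rose and Otc (-0.46) fell, with adjusted p = 0.024, 0.019, 0.045 and 0.015. These 4 had the same sign in edgeR. The 2 groups did not overlap in 4 of 54 members, Bhmt, Otc, Prodh and Oat, beside 2.95% of all genes.

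Results for control ASO livers rested in part on control ASO replicate 3, so the comparison of Upf3b-ASO with control ASO was repeated without it. The number of called members went from 11 to 16 (29.6%), and the share of all genes from 10.3% to 24.5%. All 11 calls were kept, with the same direction, and Arg1, Hpd, Got1 and Pcca (lower) and Amt (higher) were added. The values of Prodh (-1.29), Oat (-1.43), Gldc (1.03), Ahcy (-0.70) and Glul (-0.63) stayed close to those with all livers, while Sdsl, Sds, Got1, Arg1 and Tat moved toward 0. Without control ASO replicate 2 the 11 calls became 8 (6.52% of all genes), with 4 falls in place of 7, since Asl, Gnmt and Mat1a were lost. Among others, control ASO replicate 3 was the highest of 12 for Arg1, Sds, Sdsl, Got1, Tat, Bhmt, Nags and Gpt2 and the lowest for Hal, Amdhd1, Amt, Pcbd1, Kynu and Hibch.

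**Figure D3:**
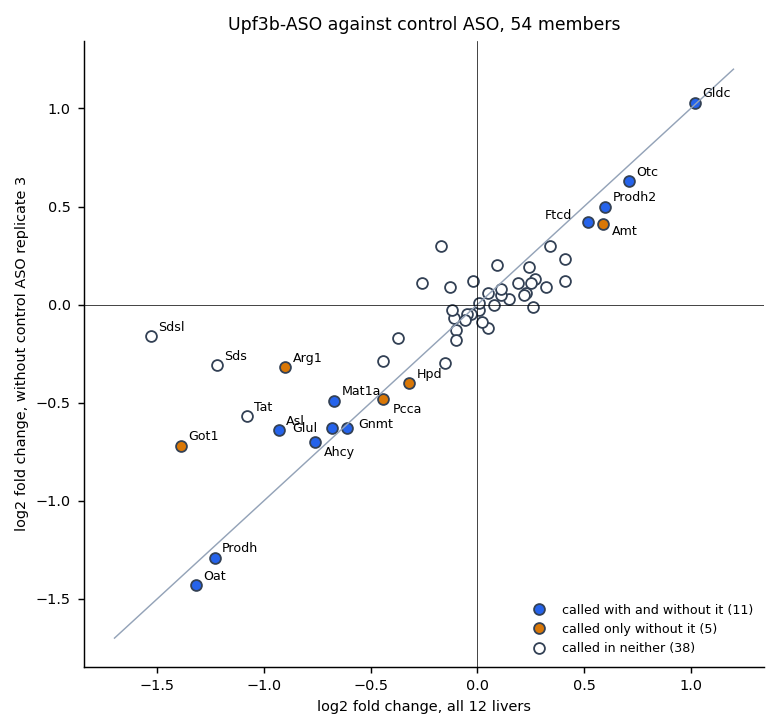
Log2 fold change of the 54 tested members in Upf3b-ASO against control ASO with all 12 livers (x axis) and without control ASO replicate 3 (y axis); the line marks equal values. The 11 members called with all livers lie near the line apart from Asl and Mat1a, 5 members are called only without that liver, and Sdsl, Sds, Got1, Arg1 and Tat lie well above the line.

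Sex was the other factor of the labels, and 5 of 54 members differed between 6 males and 6 females over the 3 groups (9.26%, beside 10.0% of all genes). Aadat and Tdo2 were higher in males (3.7% of members, 4.3% of all genes), and Hpd, Hal and Cbs were lower (5.56% and 5.73%). Aadat had a lowest, median and highest value of 72, 89.9 and 135 CPM in males and 47.1, 57.1 and 64.5 CPM in females, with no overlap (log2 fold change 0.75 ± 0.11 SE, edgeR adjusted p = 0.0019). Tdo2 had 1489, 1768 and 2159.8 CPM in males and 1054, 1259.7 and 1509.8 CPM in females (0.51 ± 0.12, adjusted p = 0.024). The 2 sexes met at the edges of Tdo2, with the lowest male under the highest female. Cbs, with 242, 273 and 360 CPM in males and 339.6, 400.5 and 496 CPM in females, was lower in males (-0.52 ± 0.11, edgeR adjusted p = 0.017), as were Hpd, with 1095, 1158 and 1508 CPM against 1314, 1580.4 and 2119 CPM (-0.41 ± 0.10, adjusted p = 0.023), and Hal, with 122, 239 and 282 CPM against 276, 324 and 368 CPM (-0.55 ± 0.15, adjusted p = 0.044). The lowest male value of Hal was that of control ASO replicate 3, and without that liver the difference was -0.41 (adjusted p = 0.0062). Without any other single liver the call of Hal was lost, so that it held in 1 of 12 such fits, and that of Hpd held in 5 of 12, being lost without any DPBS liver, control ASO replicate 2 or Upf3b-ASO replicate 2 or 4. The call of Tdo2 held in 8 of 12 and was lost without replicate 1 of any group or Upf3b-ASO replicate 3. Without control ASO replicate 3, 17 members were called between the sexes (31.5%, beside 21.9% of all genes), 4 higher and 13 lower in males. On log2(TPM + 1) values limma called 26 members (34.6% of all genes), 25 of them lower in males, on a scale that moved the median of all genes by -0.29.

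**Figure D4:**
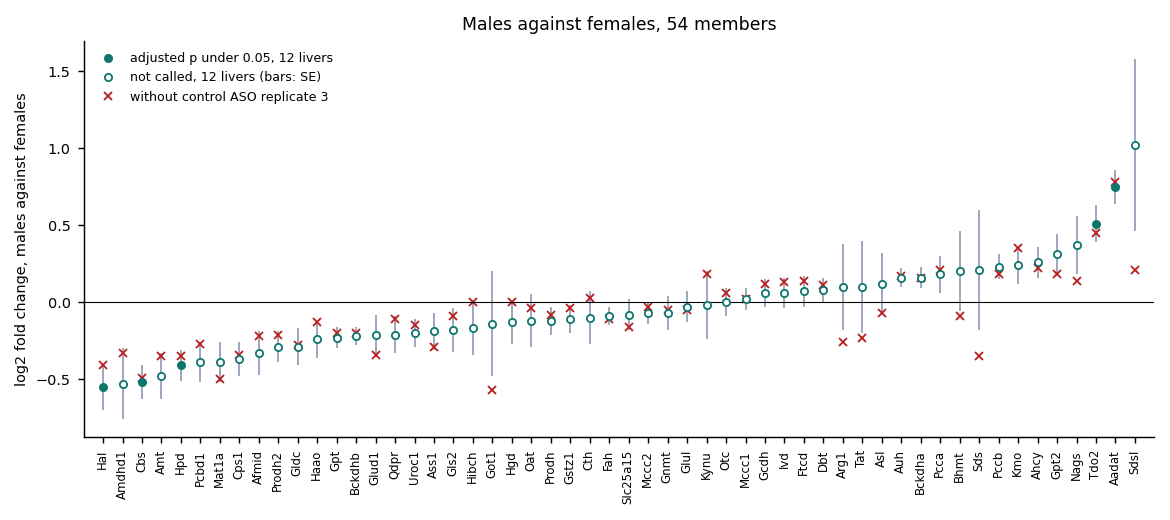
Log2 fold change of males against females (y axis) for the 54 tested members in order of their value, with SE bars; filled points have an edgeR adjusted p under 0.05, and crosses show the value without control ASO replicate 3. Aadat and Tdo2 are filled above 0 and Hal, Cbs and Hpd below it, and the crosses of Sdsl, Sds, Got1, Arg1 and Tat lie far from their points.

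No member was called in an edgeR interaction test of sex and treatment (0 of 54 members at an adjusted p under 0.05, 0.0% of all genes, no other tool run). With 2 livers per group and sex, this test cannot show that a treatment difference is the same in both sexes. An unadjusted p under 0.05 was found for 5 members, Qdpr, Cth, Uroc1, Gldc and Got1, and for 7.31% of all genes. Qdpr had a log2 difference from control ASO of -0.2 in females and 0.53 in males, and Cth -0.22 and 0.7. Gldc had a log2 difference from control ASO of 0.72 ± 0.17 in females and 1.31 ± 0.17 in males, so that it was higher in both. The difference of these, 0.59 ± 0.24, had an adjusted p = 0.59.

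Member genes were also read transcript by transcript, since NMD acts on single transcripts. The 55 genes have 238 annotated transcripts, of which 212 passed a TPM of 1 and 7 were called in Upf3b-ASO against control ASO (1.0% of 32673 transcripts over all genes). All 7 were protein coding: Prodh-205 (log2 fold change -1.43), Prodh-201 (-1.02), Ahcy-201 (-0.73) and Oat-201 (-1.29) fell, and Gldc-201 (1.06), Otc-201 (0.74) and Prodh2-201 (0.75) rose. With the replicate number as a block Prodh-201 and Otc-201 had adjusted p = 0.051 and 0.052. Of 17 member transcripts with the NMD biotype 14 were tested and none was called by edgeR. Prodh-207, the NMD transcript of Prodh, lay at 1.6 ± 1.41 CPM in Upf3b-ASO livers, with a range of 0 to 3.32 CPM. It was at 0.376 ± 0.753 CPM in control ASO and 0.995 ± 1.15 CPM in DPBS livers (SD, n = 4). Neither difference was called (2.44 and 0.65 on the log2 scale, edgeR adjusted p = 0.69 and 0.97). The 2 main coding transcripts of Prodh stood at 36.6 and 56.9 CPM in Upf3b-ASO livers, against 98.7 and 115 CPM in control ASO livers. Other NMD transcripts differed from control ASO either way, such as Got1-204 (-1.3) and Hal-201 (0.49). In the 11 members with such transcripts the NMD share of the gene's TPM was highest in Hal, at 31.4% ± 1.64 in Upf3b-ASO, 29.0% to 32.5% in control ASO and 30.2% ± 3.59 in DPBS livers (SD, n = 4). In Got1 it was 29.6% ± 3.72, 27.5% ± 1.72 and 26.4% ± 2.04, in Gls2 28.6% ± 4.03, 30.5% ± 3.89 and 26.8% ± 5.63. The groups overlapped in each of these 3 genes. In Mccc1 it was 19.6% to 31.9% in Upf3b-ASO, 14.7% to 19.4% in control ASO and 24.9% to 26.5% in DPBS livers, so that the control ASO livers were under both other groups, for a gene at 14.4 to 18.5 CPM in all. This share was not tested.

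Levels between genes were compared as TPM, which accounts for transcript length, rescaled in each liver to the transcripts joined to genes. In DPBS livers 39 of the 55 members were above 100 TPM. Hpd was first, at 2421 ± 649.8 TPM (SD, n = 4), followed by Ass1 at 2216 ± 227, Gnmt at 1609.6 ± 49, Tat at 1415 ± 459 and Cps1 at 1327 ± 157 TPM. The lowest were Nags at 34.3 ± 1.44, Mccc1 at 15.2 ± 2.37, Sdsl at 11.8 ± 2.05 and Bcat2 at 0.903 ± 0.229 TPM. Of the 54 pairs of neighbours in this order 48 had overlapping ranges, Hpd and Ass1 among them, so that the order within most stretches is not resolved by 4 livers. Ass1 was above Gnmt in every DPBS liver. In Upf3b-ASO livers Gldc stood at 73.5 ± 8.74 TPM, against 38.5 ± 9.59 in DPBS livers, and Prodh at 75.1 ± 14.7 TPM, against 124 ± 7.34.

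**Figure D5:**
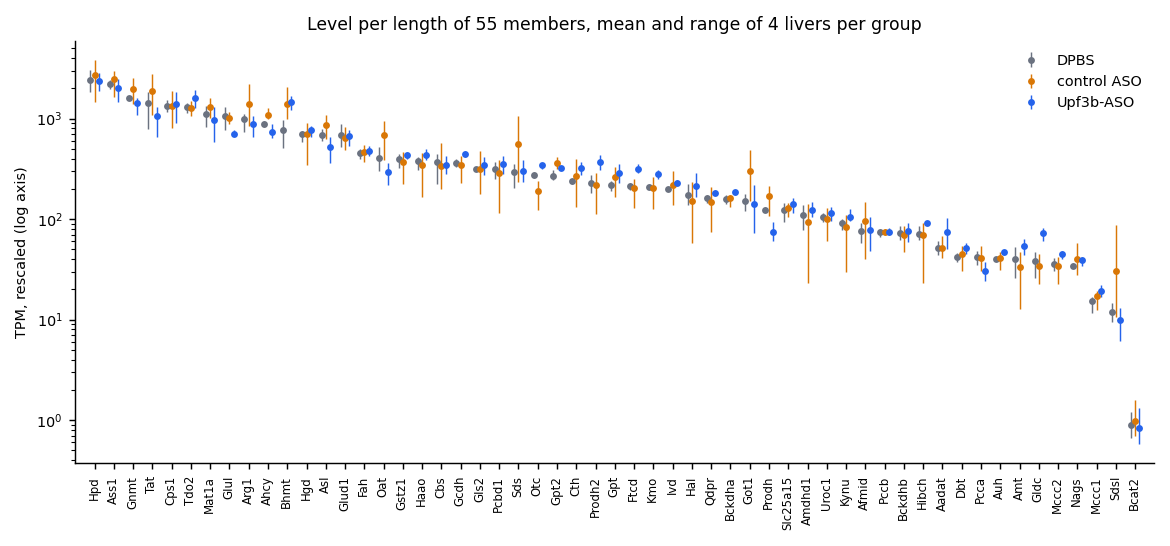
Rescaled TPM (y axis, log scale) of the 55 members in order of their mean in DPBS livers (x axis); points are group means and bars the range of 4 livers. The members run from Hpd at 2421 TPM to Bcat2 at 0.903 TPM in DPBS livers, and the long control ASO bars of Sds, Sdsl and Arg1 come from control ASO replicate 3.

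Of the other genes of amino acid metabolism, 59 of 68 were tested, and 3 rose and 3 fell in Upf3b-ASO against control ASO. In this comparison 10.3% of all genes were called. Asrgl1 (log2 fold change 0.61), Hao1 (0.58) and Acad8 (0.51) rose, and Dmgdh (-0.62), the mitochondrial aspartate-glutamate carrier Slc25a13 (-0.38) and Aass (-1.04), the first enzyme of lysine breakdown, fell. Without control ASO replicate 3, 8 rose and 10 fell, while the share of all genes called was 24.5%, and Aass then had -0.57. Among amino acid transporters 3 of 12 fell and none rose: Slc7a2 (-0.97 ± 0.16, edgeR adjusted p = 0.0043), a carrier of cationic amino acids such as arginine and ornithine, and the neutral amino acid carriers Slc38a4 (-0.55 ± 0.11, 0.011) and Slc38a3 (-0.55 ± 0.13, 0.02). The median of these 12 was -0.44. Their summed level was 3135 to 3505 CPM in Upf3b-ASO livers, under every control ASO liver (4575 to 5950.1 CPM) and every DPBS liver (4229 to 4669 CPM). Against DPBS 2 of the 12 fell, Slc6a13 (-0.59) and Slc38a3 (-0.45).

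Of 18 regulators tested, Sirt5 (0.61 ± 0.17, edgeR adjusted p = 0.043), a mitochondrial deacylase, rose and the glucocorticoid receptor gene Nr3c1 (-1.03 ± 0.23, adjusted p = 0.02) fell against control ASO. Nr3c1 was at 93.9 ± 10.2 CPM in Upf3b-ASO, 194 ± 82.9 CPM in control ASO and 149.8 ± 14.2 CPM in DPBS livers, and its difference was -0.67 without control ASO replicate 3. None of the 17 acute-phase genes was called by edgeR, and 2 fell without control ASO replicate 3. The median of that list was -1.1 with all livers. Of the markers of other cells, none of 9 Kupffer cell, 7 sinusoidal endothelium, 5 erythroid and 1 cholangiocyte genes was called, and 1 of 5 stellate cell genes fell, Ecm1 (-0.60). No lymphocyte marker passed the filter, with a sum of 2.31 to 4.48 CPM. The summed Kupffer cell level was 471 to 643 CPM in Upf3b-ASO, 379.6 to 914 CPM in control ASO and 361 to 544 CPM in DPBS livers. Among the hepatocyte markers 1 of 7 fell, Serpina1c (-0.60), a gene of a family of near-identical copies. Of 10 periportal markers, which leave out the members of that zone, 3 rose, Aldh1b1 (0.98), Cdh1 (0.65) and Etnppl (1.35), and 3 fell, Pck1 (-0.66), Rnase4 (-0.55) and Serpina1e (-3.58), a gene of the same family with a strong sex difference. The summed periportal level was 5440 to 6080.3 CPM in Upf3b-ASO, 8294 to 15728 CPM in control ASO and 7379 to 14575 CPM in DPBS livers, so that the Upf3b-ASO group was lowest without overlap. The sum depends on single abundant genes, among them Pck1, with means of 2364, 3732 and 3574 CPM in that order of groups, and Serpina1e, with 205, 3411 and 3352 CPM and an SD above the mean in both reference groups, while the median log2 difference of the list from control ASO was -0.13. The erythroid sum reached 2996 CPM in 1 control ASO liver and was 211 to 549 CPM in the DPBS and Upf3b-ASO livers. The part of these cell types and zones in the values of the members was not tested.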

How the data were processed

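Liver RNA of 12 mice was sequenced (TruSeq libraries, HiSeq2500). Per the labels and the study's methods, the authors converted reads with bcl2fastq 2.17.1.14 and quantified them with Salmon 0.7.2 against Ensembl cDNA of GRCm38. The deposited estimated counts per transcript and the TPM (abundances per transcript length and depth) that Salmon gave the authors for each liver were used. Salmon spreads reads shared by similar transcripts over them, which makes genes with near copies uncertain.

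Of 92468 transcripts, 98.1% were joined to 31114 genes through an annotation of the same build. Gene sums of the estimated counts, rounded to whole numbers, were tested for the 8846 genes that reached a TPM of 5 in 4 or more livers, with edgeR 4.0.16 (TMM, quasi-likelihood, sex as covariate, all 12 livers in 1 fit, R 4.3.3), and calls have a Benjamini-Hochberg adjusted p under 0.05 over all genes tested. Every adjusted p is from edgeR unless limma 3.58.1 or DESeq2 1.42.0 is named. The procedure was tested on simulated counts with no sex difference and no outlying liver, so that test does not cover the effect of control ASO replicate 3. Transcripts needed a TPM of at least 1 in 4 livers. Whether the animals were separate in every step is not stated beyond the labels, so p-values measure the spread between these samples.

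Members called in any comparison are named, with values in every liver for those called against both references and for the 3 lowest adjusted p per direction. Up to 3 genes per direction are named from other lists. The members and lists were chosen with earlier results of these data known. Same-numbered livers of different groups deviated together (mean r = 0.47, lowest 0.19, 12 pairs), as did livers of the same sex with another number (mean r = 0.47, lowest 0.229), since replicates 1 and 2 are females. The replicate number therefore served as a block only in an alternative. Other alternatives changed the normalization, test, filter, scale, covariate, groups in the fit, weights and cutoffs, or left out a liver. A fit on TPM rescaled to the joined transcripts was added after seeing the data, because the joined share of TPM differed between livers.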

Additional observations from a re-analysis of the deposited data

Results flagged for a closer look

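In 7 of 162 groups of 4 livers (54 members in 3 groups) 1 liver lay far from the other 3, with a gap beyond Dixon's critical value for 4 values. This is 4.32% of the groups, beside 8.84% over all genes tested, and chance gives about 1 in 20. Control ASO replicate 3 accounted for 6 of them. It was the highest of its group for Arg1 (3184 CPM, the others 931 to 1266), Nags (115 CPM, 44.6 to 54.6), Sds (993 CPM, 159.8 to 296), Sdsl (73.8 CPM, 6.39 to 7.47) and Bhmt (4862 CPM, 1777 to 2228), and the lowest for Kynu (55.9 CPM, 139 to 148). The summed acute-phase level of the same liver was 48384 CPM, against 7702 to 11715 CPM in the other livers of its group, and the part of the acute-phase state in these values was not tested. The remaining one was Cth in Upf3b-ASO replicate 3 (436 CPM, the others 309 to 319).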

How the results depend on the processing

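Of 23 calls named for single members, none changed its direction under any alternative fit, including those without 1 liver. Under all of these fits 10 passed the adjusted p threshold. The study's cutoffs, given below, are not counted among these fits. Members called in Upf3b-ASO against control ASO numbered 11 (10.3% of all genes), and 19 with the DESeq2 Wald test (17.9%), 18 with sample quality weights (29.3%), 6 with limma on TPM with either pseudocount (1 or 0.1; 3.92% and 3.78%), 6 with 2 groups only (4.1%) and 4 with the study's cutoffs (p of 0.01 and a fold of 2; 2.4%). Leaving out a liver gave 7 to 16, lowest without Upf3b-ASO replicate 4 and highest without control ASO replicate 3 (24.5% of all genes) or replicate 4 (12.1%). Against DPBS the 7 calls became 4 without a filter, with filterByExpr, on rescaled TPM or without sex, 3 with limma on TPM, 20 with 2 groups only (28.0% of all genes), 16 with weights (27.2%) and 0 with the study's cutoffs (13 members had an unadjusted p under 0.05 in edgeR, and DESeq2 called 10). Leaving out a liver gave 4 to 17, with 17 without control ASO replicate 3 (28.7% of all genes). The 4 came without any of DPBS replicates 1 to 3 or Upf3b-ASO replicates 1, 2 and 4. Control ASO against DPBS went from 0 to 4 (DESeq2, 0.486% of all genes), 2 (weights, 0.339%) and 1 (the study's cutoffs, 0.17%). Between the sexes 5 became 14 with DESeq2 (15.4% of all genes), 3 with filterByExpr (7.07%), 26 with limma on TPM (34.6% and 33.6%), 23 on rescaled TPM (24.7%), 18 with weights (22.9%) and 0 with the study's cutoffs (21 members at an unadjusted p under 0.05). Leaving out a liver gave 3 to 17, with 17 without control ASO replicate 3 (21.9% of all genes). On the TPM scales the median of all genes moved by -0.29 and -0.25 between the sexes. The 7 transcripts became 13 at a TPM of at least 5 and 3 to 9 without a liver. The share of all genes called also moved between fits. A count given here without that share therefore says nothing about the members in particular. The replicate block ended the calls of Gpt and Pcca against DPBS (7 to 5 members) and of 2 transcripts (7 to 5), and changed no other call. Among the 18 members called in some comparison, the sign of the difference from control ASO turned for 3 that were not called there, Gpt (-0.06 with weights, -0.03 to 0.06 without a liver), Tdo2 (-0.01 to 0.2 without a liver) and Cbs (0.06 with limma on TPM, 0.15 on rescaled TPM, -0.14 to 0.05 without a liver). Without control ASO replicate 3 it turned for further members that were not called: Bhmt (0.30), Slc25a15 (0.12), Nags (0.11), Glud1 (0.09), Gstz1 (-0.0, from 0.08), Kynu (-0.01), Gls2 (-0.09) and Hgd (-0.12). The causes were not tested. At the depth of these libraries the NMD transcript Prodh-207 had a mean of 0.376 CPM in control ASO livers, with 0 in 3 of 4.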
